A study of Homo sapiens with 6 samples.

Results

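The mitochondrial ribosomal protein genes carry symbols made of MRPL or MRPS, a number and at most 1 letter. This rule picked 77 of the 26255 genes listed in the expression table, 50 of them for proteins of the large subunit, 26 for proteins of the small subunit and 1, MRPS36, for a protein placed elsewhere. The measurements came from NCI-H1299, a human lung cancer cell line, in 3 libraries from cells with a control short hairpin RNA (shControl) and 3 libraries from cells with a hairpin against Ephexin1 (shEphexin1). The labels give the vector as pSilencer2.1-U6-neo for both, whereas the study's methods name its hygromycin version. Both groups were grown in RPMI-1640 with serum, with no further treatment named. Ephexin1, encoded by NGEF, is a guanine nucleotide exchange factor, and the comparison asked which transcripts differ when it is depleted. The study describes its knockdown lines as stable lines kept after selection, and the 3 shEphexin1 libraries share 1 stem in their names. The study states in general terms that its experiments were independent and repeated, but no source used here says which cultures these libraries came from, so all p-values measure the spread between these libraries, which may be technical, and a difference of 1 selected line cannot be told apart from a difference caused by the hairpin.

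Mitochondria keep a ribosome of their own, which translates the few messages encoded in mitochondrial DNA, all of them for core subunits of the respiratory chain and the ATP synthase. Its RNA comes from mitochondrial DNA, but every protein of it is encoded in the nucleus, made in the cytosol and imported. Some of these proteins have counterparts in bacterial ribosomes, and others were added in the mitochondrial lineage. Names do not always give the place: MRPS30 (mL65) and MRPS18A (mL66) sit in the large subunit, and MRPS36 (KGD4) belongs to the alpha-ketoglutarate dehydrogenase complex. Values are FPKM, the number of sequenced fragments scaled by transcript length and by library size, a level that can be set side by side between genes. Fold changes are on the log2(FPKM + 0.1) scale, shEphexin1 over shControl, so a negative value means a lower level in shEphexin1.

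The targeted gene, NGEF, measured 13.3, 11.7 and 16.4 FPKM in the shControl libraries and 9.81, 8.25 and 10.5 FPKM in the shEphexin1 libraries. The groups did not overlap, but the difference, a log2 fold change of -0.53 ± 0.163 (SE, n = 3 per group), did not pass the test (adjusted p = 0.103, limma). It passed in replicates 1 and 3 alone (adjusted p = 0.0338) and with replicate 2 as a batch term (adjusted p = 0.00572). Replicate 2 of both groups stood apart: over the 77 genes, the deviation of a library from its group mean had a rank correlation with GC content of -0.885 in shControl 2 and -0.925 in shEphexin1 2, against 0.510 to 0.868 in the other 4 libraries. Of the markers listed for an epithelial carcinoma cell, VIM averaged 2165 FPKM in the shControl libraries and 2492 FPKM in the shEphexin1 libraries. CDH2 averaged 14.6 and 12.7 FPKM, and the groups overlapped for both VIM and CDH2. KRT18 fell from 88.9 to 46.2 FPKM and KRT8 from 6.78 to 3.13 FPKM. CDH1 was listed at 0 in all 6 libraries, and KRT19 and EPCAM were at most at 0.220 FPKM in any library. Of 10 markers of other cell types, PTPRC, CD3E and SCGB1A1 were listed at 0 in every library, and only CD68 and COL1A1 passed the filter on low values. Their summed level, nearly all CD68, lay between 38.0 and 53.8 FPKM in the shControl libraries and between 53.8 and 71.6 FPKM in the shEphexin1 libraries. What part these differences have in the results was not tested.

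Mitochondrial ribosomal protein transcripts had lower levels in shEphexin1 across nearly the whole family, by a small amount. In bulk RNA a lower level in every cell and fewer cells with a high level cannot be told apart. All 77 genes passed the filter on low values, the lowest value in any library being 7.18 FPKM, and 75 of the 77 had a log2 fold change below 0. The median log2 fold change was -0.28, a level at 82.6% of shControl, with quartiles of -0.40 and -0.15 and a range from -0.99 to 0.06. Over all 16020 genes tested the median was -0.01 and 51.1% lay below 0. Among the 6338 tested genes whose mean lay within the range of the family the median was -0.07 and 60.4% lay below 0. At an adjusted p of at most 0.05 (limma, Benjamini-Hochberg over all tested genes), 11 members fell and 0 rose, that is 11 of 77 against 4.32% of all tested genes called lower and 2.69% called higher. At an unadjusted p of at most 0.05 the counts were 25 lower and 0 higher, against 12.8% and 10.5% of all tested genes. In 30 members every shEphexin1 value lay below every shControl value, and in 0 members above it, against 15.4% and 12.8% of all tested genes. Of the 6338 genes in the range of the family, 306 were called lower and 120 higher at the adjusted threshold. At the unadjusted threshold 1015 of them were lower and 434 higher. Their groups did not overlap in 1196 with shEphexin1 lower and in 545 with shEphexin1 higher. None reached the study's stricter threshold of a 2-fold difference at an adjusted p of at most 0.025, which 1.89% of all tested genes passed, although MRPL10 missed it only by its fold.

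**Figure D1:**
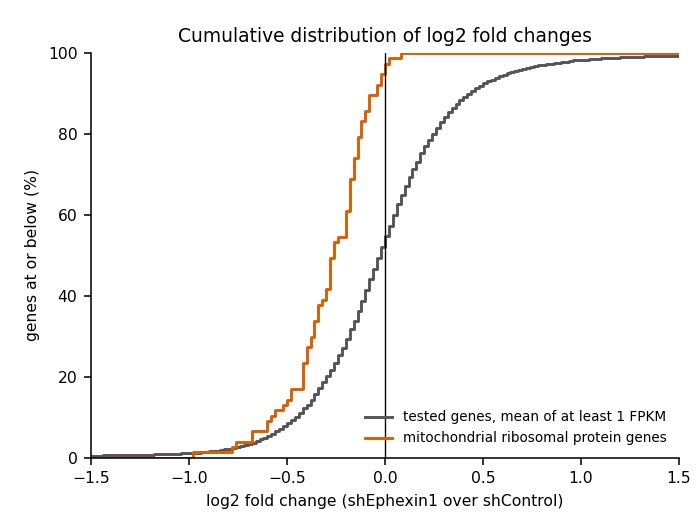
The horizontal axis is the log2 fold change of shEphexin1 over shControl and the vertical axis is the share of genes, in percent, at or below it, for the 77 mitochondrial ribosomal protein genes and for the 12638 tested genes with a mean of at least 1 FPKM. The curve of the family lies to the left of the other over most of its range, with 97.4% of the family below 0 against 54.7% of the other set, while its lower end, at -0.99, lies within the range of the other set.

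Library by library, the median FPKM of the 77 genes was 39.6, 33.4 and 39.2 in shControl 1 to 3 and 29.8, 28.8 and 29.8 in shEphexin1 1 to 3. The 2 groups did not overlap in this median. Nor did they overlap in the share of all FPKM that the family took up, which was 0.568%, 0.562% and 0.565% in shControl and 0.509%, 0.508% and 0.5003% in shEphexin1. In the 9 comparisons of 1 shEphexin1 library with 1 shControl library, between 51 and 75 of the 77 genes were lower, with median differences from -0.39 to -0.13 on the log2 scale. The 2 lowest counts, 51 and 52, set shEphexin1 3 and shEphexin1 1 against shControl 2, the control library with the deviating relation to GC content. Without replicate 2 of both groups the median log2 fold change was -0.29, 24 members fell and 0 rose, against 10.4% of all tested genes called lower and 6.89% called higher. With replicate 2 as a batch term, 39 fell and 0 rose, against 17.1% and 12.2%. After a correction for GC content and length, 65 of the 77 genes lay below 0 with a median of -0.17, 30 fell and 0 rose, against 17.7% and 15.3%. The count of 11 depended on replicates 1 and 3 of both groups. Without shControl 1 or without shControl 3 no gene passed in limma (15 and 19 lower and 0 higher at an unadjusted p of at most 0.05), where only 50 of 15761 and 88 of 15774 tested genes were called lower. Without shEphexin1 1 or without shEphexin1 3 only 1 did, where 135 of 15739 and 205 of 15751 were called lower, with 70 to 74 of the 77 genes below 0 in these 4 fits.

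**Figure D2:**
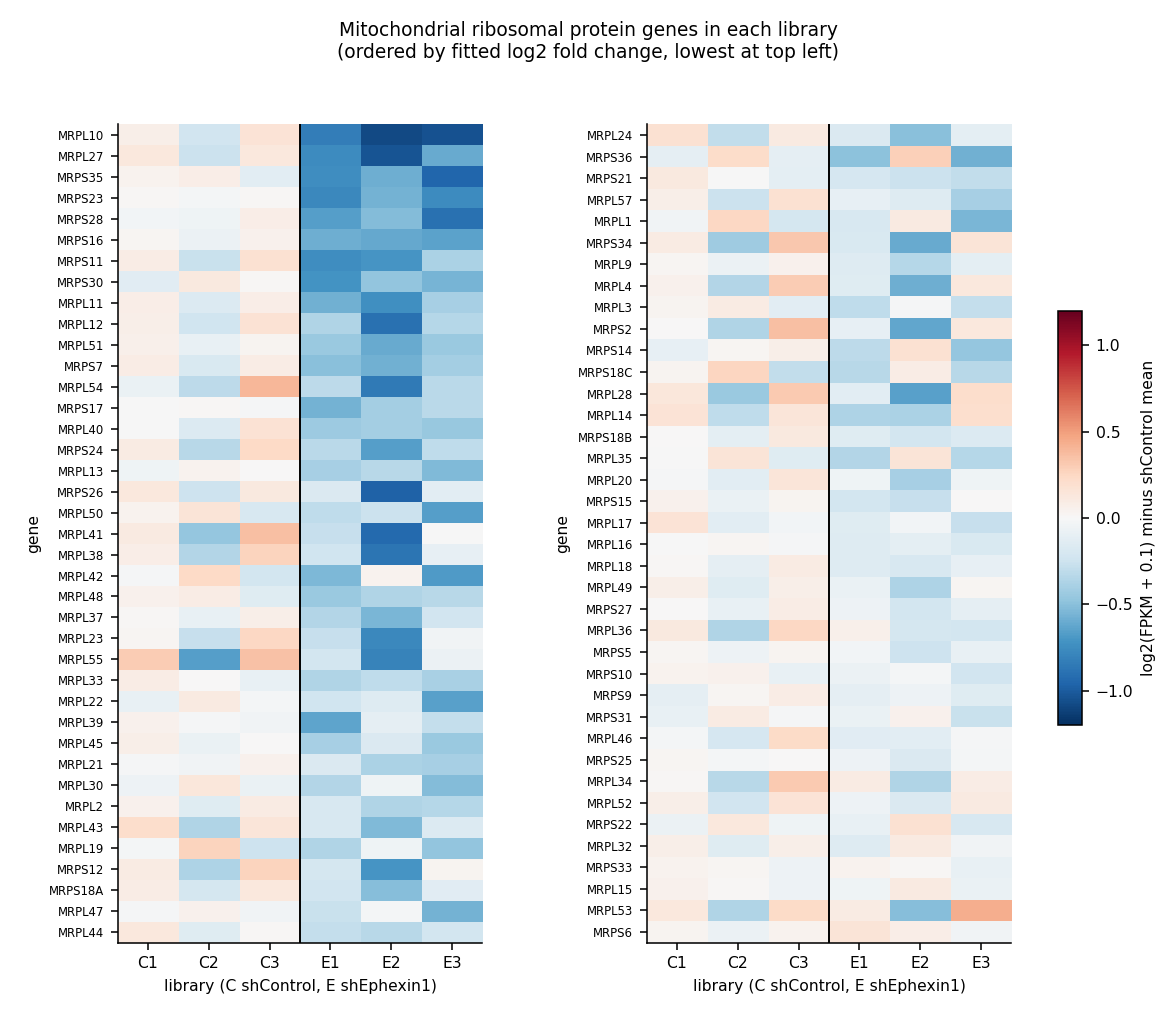
Each row is a gene and each column a library, C1 to C3 for shControl and E1 to E3 for shEphexin1, with colour giving log2(FPKM + 0.1) minus the shControl mean of that gene, blue for lower. Most rows turn blue to the right of the vertical line, and the columns C2 and E2 show a pattern of their own within each group.

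The 11 genes that fell included parts of the stalk base and the centre of the large subunit. MRPL10 (uL10m, chr17:45900638-45908907, minus strand, GRCh37) anchors the stalk that recruits translation factors, and it measured 30.04, 24.4 and 32.0 FPKM in the shControl libraries and 16.1, 13.5 and 13.8 FPKM in the shEphexin1 libraries. Its level was at 50.2% of shControl, a log2 fold change of -0.99 ± 0.141 (SE, n = 3 per group; adjusted p = 0.0112), and its groups stood far apart. MRPL11 (uL11m, chr11:66202546-66234209, minus strand), its partner in the stalk base, measured 38.3, 32.5 and 38.5 FPKM in the shControl libraries and 24.3, 21.7 and 27.5 FPKM in the shEphexin1 libraries. It fell with a log2 fold change of -0.57 ± 0.130 (adjusted p = 0.0434). MRPL12 (bL12m), the stalk protein itself, measured 31.1, 25.2 and 33.4 FPKM against 23.2, 15.9 and 23.4 FPKM, and its log2 fold change of -0.53 ± 0.186 did not pass the test (adjusted p = 0.141). MRPL12 was chosen for mention after its values were seen. The groups of these 3 genes did not overlap, which was known when they were picked. The same held for 30 of the 77 members and 15.4% of all tested genes, so no result on the stalk is drawn.

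MRPL27 (bL27m, chr17:48445218-48450568, minus strand), whose bacterial counterpart reaches towards the peptidyl transferase centre, measured 49.6, 37.9 and 49.5 FPKM in the shControl libraries and 26.8, 21.99 and 29.8 FPKM in the shEphexin1 libraries. It fell to 57.4% of shControl, a log2 fold change of -0.80 ± 0.161 (adjusted p = 0.0324). The lowest control library was again replicate 2, which still lay above all shEphexin1 values. MRPL13 (uL13m, on 8q), a large-subunit protein with a bacterial counterpart, measured 51.8, 55.2 and 53.5 FPKM against 40.4, 42.4 and 37.0 FPKM, a log2 fold change of -0.42 ± 0.0996 (adjusted p = 0.0485). Of the proteins added in mitochondria, MRPL51 (mL51, chr12:6601052-6603007, minus strand) was the most abundant transcript of the family, with 286, 259 and 282 FPKM in the shControl libraries and 202.6, 181 and 201 FPKM in the shEphexin1 libraries. It fell by 0.50 on the log2 scale (SE 0.0981, adjusted p = 0.0304), and this was also the largest drop of the family in FPKM, from a mean of 276 ± 14.9 to 195 ± 12.4 (SD over 3 libraries). MRPS30 (mL65, chr5:44809049-44820530, plus strand), a large-subunit protein despite its name, measured 21.3, 25.5 and 23.6 FPKM against 14.2, 16.8 and 15.8 FPKM, a log2 fold change of -0.58 ± 0.121 (adjusted p = 0.0352). Here replicate 2 was the highest library of both groups.

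In the small subunit 5 genes fell. MRPS35 (mS35, chr12:27863755-27909228, plus strand) and MRPS23 (mS23, chr17:55912142-55927417, minus strand) are proteins without a bacterial counterpart. MRPS35 measured 67.6, 69.2 and 60.1 FPKM in the shControl libraries and 38.99, 43.7 and 33.9 FPKM in the shEphexin1 libraries, a log2 fold change of -0.76 ± 0.126 (adjusted p = 0.0179). MRPS23 measured 46.2, 44.96 and 46.3 FPKM in shControl, an SD of 0.756 FPKM, and 26.8, 30.9 and 27.1 FPKM in the shEphexin1 libraries, a log2 fold change of -0.70 ± 0.102 (adjusted p = 0.0122). Of the shControl libraries, shControl 2 was the highest for MRPS35 and the lowest for MRPS23. The dip for MRPS23 was smaller than those seen for MRPL10 and MRPL27. MRPS16 (bS16m, chr10:75008601-75012451, minus strand), a protein with a bacterial counterpart that is needed for the small subunit to assemble, measured 86.2, 80.6 and 87.6 FPKM against 56.5, 55.4 and 54.4 FPKM. It fell to 65.4% of shControl, a log2 fold change of -0.61 ± 0.0906 (adjusted p = 0.0126), and had the smallest standard error of the 11. MRPS28 (bS1m, on 8q) measured 40.7, 40.1 and 43.97 FPKM against 26.2, 28.9 and 22.3 FPKM, a log2 fold change of -0.69 ± 0.124 (adjusted p = 0.0224). MRPS7 (uS7m, chr17:73257755-73262457, plus strand), a protein of the head of the small subunit that binds its RNA, measured 40.8, 33.8 and 40.6 FPKM against 27.0, 25.7 and 28.9 FPKM, and passed only just, with a log2 fold change of -0.49 ± 0.117 (adjusted p = 0.0498). In all 5, picked because they passed, the groups did not overlap, as in 15.4% of all tested genes.

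**Figure D3:**
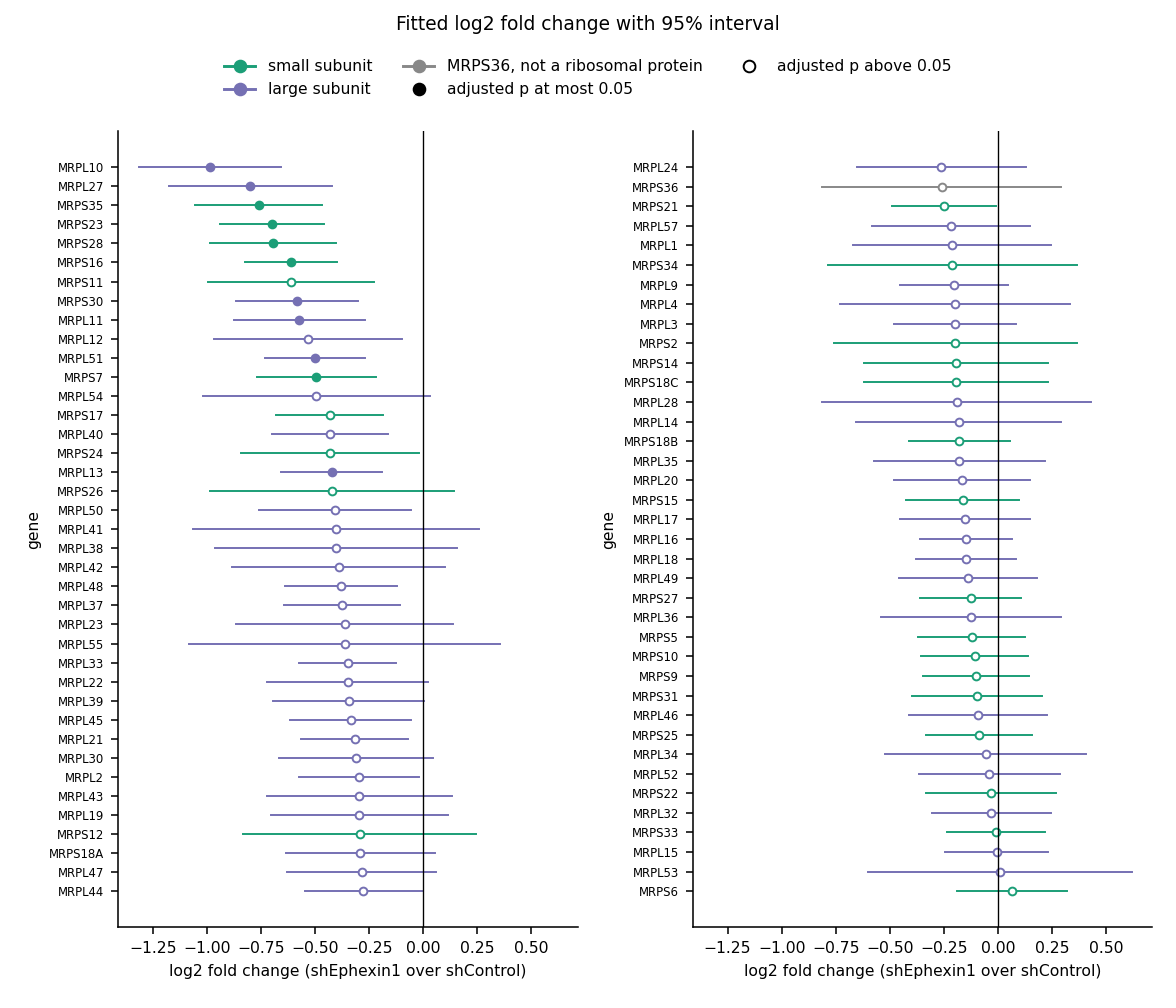
The horizontal axis is the fitted log2 fold change of shEphexin1 over shControl for each of the 77 genes, with a 95% interval, coloured by subunit and filled where the adjusted p is at most 0.05. The 11 filled points lie between -0.99 and -0.42 and include both subunits, and only MRPL53 and MRPS6 lie above 0, each with an interval that spans 0.

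At the other end were the 6 genes with the highest fold changes. MRPS6 (bS6m), a small-subunit protein with a bacterial counterpart, measured 17.4, 16.3 and 17.6 FPKM in the shControl libraries and 19.0, 18.1 and 16.6 FPKM in the shEphexin1 libraries, the highest log2 fold change of the family at 0.06, with a 95% interval from -0.19 to 0.32. MRPS33 (mS33) measured 37.6, 37.1 and 35.2 FPKM against 37.7, 37.1 and 34.4 FPKM, a difference of -0.01 on the log2 scale that could lie between -0.24 and 0.22. MRPL15 (uL15m) measured 43.3, 42.03 and 40.0 FPKM against 40.3, 44.98 and 39.6 FPKM, also a difference of -0.01, which could lie between -0.24 and 0.23. These genes were picked for their high values, so no comparison with the family's median is drawn from their intervals. MRPL32 (bL32m) and MRPS22 (mS22) both had a log2 fold change of -0.03, with intervals from -0.30 to 0.24 and from -0.33 to 0.27. MRPL53 (mL53) averaged 30.8 ± 6.42 and 31.6 ± 9.91 FPKM (SD over 3 libraries). Its log2 fold change was 0.01, with a wide interval from -0.60 to 0.62. In all 6 the groups overlapped.

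Both subunits and both evolutionary classes held genes that fell, to be read against 4.32% of all tested genes called lower and 15.4% with groups that did not overlap. Of the 50 large-subunit genes, 49 lay below 0, with a median of -0.30, 6 fell and 20 had groups that did not overlap. Of the 26 small-subunit genes, 25 lay below 0, with a median of -0.20, 5 fell and 10 had groups that did not overlap. The 46 genes with a bacterial counterpart had a median of -0.23 and 7 that fell, and the 30 mitochondria-specific genes had a median of -0.32 and 4 that fell. The quartiles were -0.39 and -0.18 in the large and -0.43 and -0.11 in the small subunit, and no test was made between the classes. MRPS36, the gene outside the ribosome, measured 24.7, 31.0 and 24.7 FPKM in the shControl libraries and 19.0, 32.5 and 17.8 FPKM in the shEphexin1 libraries. Its log2 fold change of -0.26 ± 0.236 did not pass the test (adjusted p = 0.571), and replicate 2 was far above the others in both groups. In replicates 1 and 3 alone it fell by 0.42 on the log2 scale (adjusted p = 0.0218), where 10.4% of all tested genes were called lower. This was the 1 alternative in which MRPS36 passed, and in 20 others it did not.

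The 3 MRPS18 paralogs occupy different sites of the ribosome, MRPS18A in the large and MRPS18B and MRPS18C in the small subunit. MRPS18A measured 31.5, 25.6 and 32.4 FPKM in the shControl libraries and 25.3, 20.8 and 27.1 FPKM in the shEphexin1 libraries, a log2 fold change of -0.29 (adjusted p = 0.29). MRPS18B measured 67.4, 62.1 and 72.8 FPKM against 60.7, 57.7 and 59.9 FPKM, a log2 fold change of -0.18 (adjusted p = 0.341), and was the only one of the 3 whose groups did not overlap. MRPS18C measured 28.6, 33.4 and 22.8 FPKM against 22.1, 29.7 and 22.1 FPKM, a log2 fold change of -0.19 (adjusted p = 0.584). None of them passed the test, although MRPS18A did with replicate 2 as a batch term (adjusted p = 0.00999). Their 95% intervals, from -0.63 to 0.05, from -0.41 to 0.05 and from -0.62 to 0.23, span 0 and overlap one another.

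The transcript levels of the family spanned a 23.1-fold range, from a mean over all libraries of 10.2 FPKM for MRPL22 to 235 FPKM for MRPL51. The median was 33.7 FPKM and 58 of the 77 genes lay within 2-fold of it. MRPL51 stood alone at the top. MRPL41 followed with 157, 105 and 186 FPKM in the shControl libraries and 120, 76.4 and 145 FPKM in the shEphexin1 libraries, and MRPS12 with 137, 98.8 and 154 FPKM against 110, 77.9 and 131 FPKM, values that overlapped both between these 2 genes and between the groups. Their log2 fold changes, -0.40 and -0.29, did not pass the test (adjusted p = 0.45 and 0.506) but did with replicate 2 as a batch term (adjusted p = 0.0141 and 0.0279). At the bottom, MRPL22 measured 10.7, 12.2 and 11.2 FPKM against 9.60, 10.2 and 7.18 FPKM, MRPS14 10.3, 11.2 and 11.6 FPKM against 8.87, 12.6 and 7.99 FPKM, and MRPL57 13.5, 10.7 and 14.6 FPKM against 11.9, 11.5 and 9.72 FPKM. The values of these 3 neighbours in the order of levels overlapped one another. The groups overlapped for MRPS14 and MRPL57 but not for MRPL22, as in 15.4% of all tested genes with shEphexin1 lower. The log2 fold changes of the 3 genes, -0.35, -0.20 and -0.22, did not pass the test. The order of the 77 genes hardly differed between the groups, with a rank correlation of 0.969 over the 77 means. The fold change had a rank correlation of -0.02 with the mean level, 0.00 with transcript length and -0.10 with GC content over the 77 genes, given as a description only, since all points share the same 6 libraries.

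**Figure D4:**
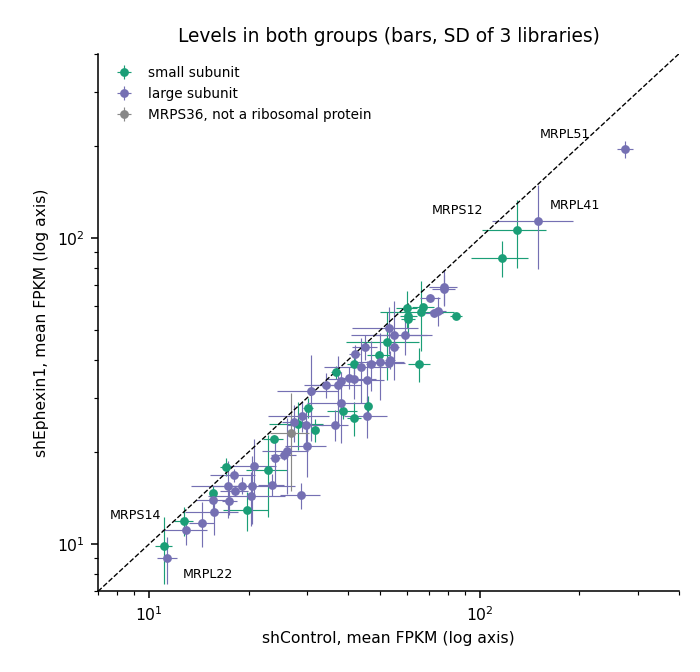
Mean FPKM in shEphexin1 (vertical) against mean FPKM in shControl (horizontal), both on log axes, for the 77 genes, with bars of 1 SD over 3 libraries and a dashed line of equality. Nearly all points lie below the line along the whole range, from MRPL22 at the lower end to MRPL51 at the upper end.

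The genes are scattered over the genome, and their fold changes went along with those of their chromosomal neighbours. For each gene the median log2 fold change of expressed genes within 5 Mb was taken. Over the 77 genes the rank correlation between a gene and its neighbours was 0.482, and over 12126 expressed genes it was 0.387, where nearby genes share most of their neighbours. After the neighbours' median was subtracted, 74 of the 77 genes remained below 0 with a median of -0.24, but none passed the test in limma (17 lower and 1 higher at an unadjusted p of at most 0.05), against 1.68% of all genes then called lower and 2.02% called higher. After the median of the whole chromosome arm was subtracted, 71 remained below 0 with a median of -0.21, and 2 passed, MRPL10 and MRPS23, both lower, against 2.08% called lower and 2.29% called higher. MRPS23 (neighbours -0.62), MRPL27 (neighbours -0.56), MRPS35 (neighbours -0.49) and MRPS30 (neighbours -0.44) lay in regions where other genes were lower too. MRPL10 had a log2 fold change 0.63 below its neighbours' median of -0.35, and MRPS28 was 0.52 below its neighbours' median of -0.18.

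Of the 11 genes that fell, 4 (MRPL10, MRPL27, MRPS23 and MRPS7) lie on 17q, where the median log2 fold change of all 506 expressed genes was -0.21. All 7 members on 17q lay below 0, with a median of -0.53. This arm was singled out after the values were seen, and the 70 members elsewhere had a median of -0.23, with 7 that fell and 68 below 0. Both members on 12p, MRPS35 and MRPL51, fell, on an arm with a median of -0.43 over 170 expressed genes. MRPS33, the only member on 7q, showed the opposite setting: its neighbours had a median of 0.34, its arm a median of 0.30, and the gene itself stayed at -0.01. MRPL15 on 8q stayed at -0.01 beside neighbours at -0.45. No member lies on 18p or 18q.

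**Figure D5:**
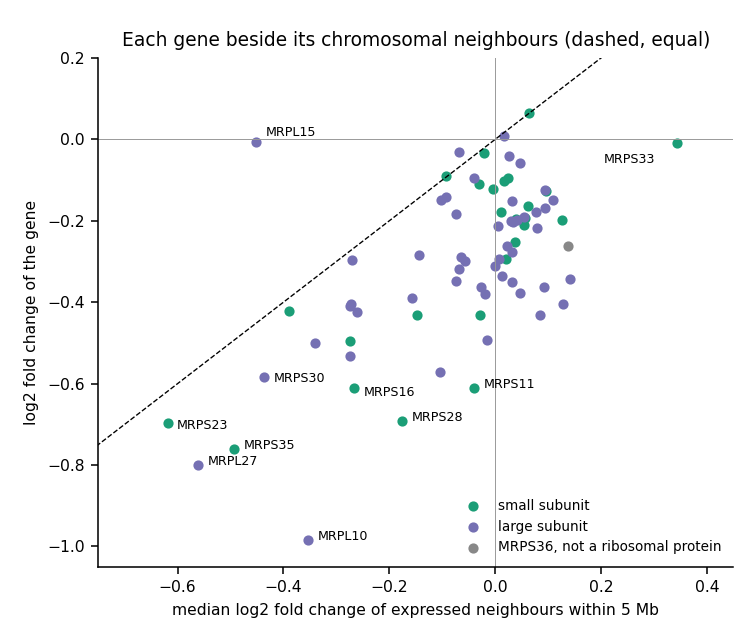
The vertical axis is the log2 fold change of each of the 77 genes and the horizontal axis is the median log2 fold change of the expressed genes within 5 Mb of it, with a dashed line of equality. Of the 77 points 74 lie below the dashed line, also where the neighbours are near 0, and MRPL15 lies far above it.

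Many of these genes start head to head with another gene. A gene on the other strand began within 1000 bases before the start, or with an overlap of at most 100 bases, in 20 of the 77 genes (26.0%), against 13.4% of the 15202 tested genes with a position. MRPS11 and MRPL46, 1 gene for each subunit, start 63 bases apart on 15q, at chr15:89010684-89024007 on the plus strand and chr15:89002708-89010621 on the minus strand. MRPS11 measured 20.9, 16.3 and 22.2 FPKM in the shControl libraries and 11.6, 12.003 and 15.1 FPKM in the shEphexin1 libraries, a log2 fold change of -0.61 ± 0.164 that did not pass (adjusted p = 0.0706), with groups that did not overlap. MRPL46 measured 17.6, 15.5 and 21.04 FPKM against 16.3, 16.4 and 17.7 FPKM, a log2 fold change of -0.09 ± 0.137 (adjusted p = 0.741), with groups that overlapped. MRPL27 starts 13 bases from EME1, a subunit of a DNA repair endonuclease, which fell as well, from 14.1 to 8.74 FPKM, a log2 fold change of -0.68 (adjusted p = 0.0183). MRPL32 starts 191 bases from PSMA2, a proteasome subunit, and stayed at -0.03 while PSMA2 fell from 137 to 92.3 FPKM, a log2 fold change of -0.58 (adjusted p = 0.0377). These pairs were picked after their values were seen. The 18 partners outside the family had a median of -0.22, 11 of them below 0, and EME1 and PSMA2 were the 2 that fell. Over all tested genes 51.1% lay below 0 and 4.32% were called lower.

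Promoters were searched for short motifs of factors known from mitochondrial genes, as a description with no test. RefSeq promoters on GRCh38.p14, 250 bases before to 50 bases after the start, were matched for 68 of the 77 genes. The letters AAGATGGC, the core of the site of YY1, a zinc finger protein that binds many promoters of mitochondrial genes, occurred on either strand in 20 of the 68 (29.4%), against 5.75% of 9810 promoters of expressed genes and 3.03% of all 27305 promoters. In 15 of the 68 (22.1%, against 3.34% of expressed genes) they stood after the start on the gene's own strand, 7 to 36 bases into the transcript, where their ATG can coincide with a start codon. The genes with these letters included 3 of the 8 matched genes that fell and 17 of the 60 others. Windows of 30 bases around them are shown for those 3 genes and for 3 whose fold change did not pass, to let the shared place and the differing flanks be seen, with the motif in capitals, 5′ to 3′ on the gene's strand.
MRPS30 (chr5:44808949-44808978, plus strand): aatcgcgggcaAAGATGGCggcggccaggt
MRPL51 (chr12:6493223-6493252, minus strand): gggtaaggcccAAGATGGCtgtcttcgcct
MRPS7 (chr17:75261887-75261916, plus strand): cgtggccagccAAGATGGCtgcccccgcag
MRPS18B (chr6:30617852-30617881, plus strand): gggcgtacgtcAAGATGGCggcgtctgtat
MRPS10 (chr6:42217834-42217863, minus strand): tcgggaccggcAAGATGGCggcgcggacag
MRPL46 (chr15:88467362-88467391, minus strand): tgggagaacgaAAGATGGCggcgcccgtaa

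The 6 genes had log2 fold changes of -0.58, -0.50, -0.49, -0.18, -0.11 and -0.09 in this order. They were picked with these values known, so nothing about the motif is drawn from their spread. The 20 genes with the letters had a median log2 fold change of -0.29 and the 48 without them -0.22.

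For the other motifs the share in the family lay closer to that in other promoters. The letters CCGGAAGT, bound by GABPA and other ETS factors that act on many mitochondrial genes, occurred on either strand in 11 of the 68 promoters (16.2%), against 9.44% of expressed genes and 4.44% of all promoters. MRPL27 held them at 2 places, and the windows are shown because MRPL27 is the only gene that fell with more than 1 such match, with the motif in capitals.
MRPL27, 52 bases before the start (chr17:50373218-50373247, minus strand): ccacgcagggcCCGGAAGTagatctcctga
MRPL27, 8 bases before the start (chr17:50373174-50373203, minus strand): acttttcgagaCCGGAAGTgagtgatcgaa

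The palindrome CGCATGCG at the centre of the site of NRF1, a transcription factor of respiratory genes, occurred in 3 of 68 (4.41%, against 4.15% of expressed genes), those of MRPL17, MRPL22 and MRPS18C. The E-box CACGTG, bound by MYC, occurred in 6 (8.82%, against 10.5%), the CREB site TGACGTCA in 0 (against 3.44%) and the SP1 letters GGGGCGGGG in 17 (25%, against 27.9%). Exact letters in such a window miss sites that are further away or degenerate, and a match says only that the letters are there.

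Among the other genes of mitochondrial translation, 1 gene in each of 3 lists passed the test. These counts are to be read against all tested genes, of which 4.32% were called lower and 51.1% lay below 0. Of the 6 tested mitoribosomal proteins with symbols of another kind, CHCHD1 (mS37) fell, from 43.9, 41.0 and 44.8 FPKM to 27.8, 31.6 and 31.1 FPKM, a log2 fold change of -0.52 (adjusted p = 0.0318). The lowest and highest values of that list were -0.59 for ICT1, a peptidyl-tRNA hydrolase built into the large subunit (adjusted p = 0.0591), and 0.03 for PTCD3, a small-subunit protein. Of 30 genes for assembly of the ribosome and maturation of its RNA, 22 lay below 0 with a median of -0.06, and FTSJ2, the methyltransferase also called MRM2, was the 1 that fell, from 25.9, 24.1 and 29.8 FPKM to 15.0, 12.9 and 15.4 FPKM, a log2 fold change of -0.88 (adjusted p = 0.0123). The highest value there was 0.37 for SPG7, a subunit of the protease that matures MRPL32 (adjusted p = 0.319). Of 16 translation factors, 13 lay below 0 with a median of -0.17, and TSFM, the partner of the elongation factor TUFM, was the 1 that fell, from 24.2, 23.3 and 29.6 FPKM to 18.2, 15.0 and 16.7 FPKM, a log2 fold change of -0.62 (adjusted p = 0.0397). The highest was 0.27 for MTRF1, a release factor. None of these lists had a gene that rose, against 2.69% of all tested genes called higher. Each of the 3 genes that fell had groups that did not overlap, as had 15.4% of all tested genes.

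None of the 5 genes of mitochondrial transcription passed in limma. At an unadjusted p of at most 0.05 there were 1 lower and 0 higher, against 12.8% and 10.5% of all tested genes. TFAM, which packages and transcribes mitochondrial DNA, measured 27.3, 32.5 and 24.3 FPKM in the shControl libraries and 17.8, 22.1 and 15.3 FPKM in the shEphexin1 libraries, a log2 fold change of -0.61 ± 0.171 (adjusted p = 0.0801), and TEFM, an elongation factor, was the highest at 0.22. None of the 9 regulators of mitochondrial biogenesis passed either (0 in each direction at an unadjusted p of at most 0.05, against the same shares of all tested genes). They ranged from -0.28 for GABPB1, the partner of GABPA, to 0.46 for the coactivator PPARGC1A, which averaged only 1.62 and 2.27 FPKM. YY1 averaged 47.6 ± 1.61 FPKM in the shControl libraries and 43.2 ± 4.002 FPKM in the knockdown (SD, n = 3). Its log2 fold change was -0.14 (adjusted p = 0.484), and it is named here because its motif is. The messages encoded in mitochondrial DNA, which these ribosomes translate, were not analysed here, since 0 of 13 were found in the table by name.

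Overlapping genes and copies limit some of these values. Exons of 39 members share bases with another annotated gene, and 36 members have named pseudogenes. Although the library kit keeps the strand, whether the counting used it is not given in the sources used here. The 18 members with neither overlap nor named pseudogene all lay below 0, with a median of -0.33, and 4 of them (MRPL10, MRPL27, MRPS23 and MRPS30) fell. Among the other 7 that fell, exons of MRPL11, MRPL13, MRPL51, MRPS7 and MRPS16 overlap a gene on the other strand, exons of MRPS28 overlap a readthrough gene on the same strand, and MRPS35 has 2 named pseudogenes. MRPS6, the highest of the family, shares exons with SLC5A3 on the same strand, so its value is uncertain.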

How the data were processed

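Total RNA was extracted with TRIzol and made into TruSeq stranded total RNA libraries. Per the labels and the study's methods, the authors demultiplexed with bcl2fastq 2.20, mapped reads to GRCh37/hg19 with TopHat2 2.0.13 and Bowtie, and deposited FPKM per gene and library from Cufflinks 2.2.1 (Cuffdiff) with geometric library normalization and pooled dispersion. The annotation, and whether base composition was corrected for, are not given in the sources used here. The deposited FPKM hold no read counts, and low values showed no steps shared by genes, so the depth is unknown and no counting interval is given.

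Names were matched to GENCODE 44 on GRCh37 (23746 of 26253 distinct names, 77 of 77 members). The 16020 genes that reached 0.1 FPKM in 3 or more of the 6 libraries were fitted as log2(FPKM + 0.1) with limma 3.58.1 in R 4.3.3 (eBayes with trend, all 6 libraries, no covariate, two-sided, Benjamini-Hochberg). With 3 against 3 libraries an exact permutation test of 1 gene cannot go below p = 0.1, so none is used. On simulated data with 16020 genes, 47 of 67 genes changed by 2 on the log2 scale were called and 21 of 67 changed by 1. Of the genes changed by 0.5, 2 of 66 were called, and of the unchanged genes 1 of 15820. The changed genes were few and drawn from all levels, and a change of the size of the family's median was not simulated. No rate of detection for the family is drawn from this.

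The members and lists were chosen with earlier results of these data known. Named members are NGEF, the 6 highest and 6 lowest fold changes, the 5 smallest p-values, the 3 highest and 3 lowest levels, all on 7q, 12p, 18p and 18q, the MRPS18 paralogs, MRPS30, MRPS36 and strict calls. MRPL11, MRPL13, MRPS7, MRPS10, MRPS11, MRPL12 and MRPL46 fall outside this rule and were chosen after their values were seen, as were YY1 and the divergent partners. From other lists, genes past the threshold and otherwise the lowest and highest are named. Positions of genes are on GRCh37 and those of promoters on GRCh38.p14, with no conversion. Alternatives covered normalization, filter, pseudocount, moderation, GC content and length (loess), a batch term, a replicate block, chromosome arms, neighbours (added after the data were seen) and leaving out each library. Groups of 3 are too small to test for outlying libraries.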

Additional observations from a re-analysis of the deposited data

How the results depend on the processing

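The count of 11 members that fell (692 of all tested genes called lower) became 5 without the trend in eBayes (510 of all), 6 after quantile normalization (498), 2 with the arm median subtracted (317), 0 with the neighbours' median subtracted (254), 24 in replicates 1 and 3 alone (1662), 39 with the batch term for replicate 2 (2734), 30 after the GC and length loess (2687) and 5 at an adjusted p of at most 0.025 with any fold. No count over all genes is given for the last of these. Leaving out each library in turn gave 0 to 9 members that fell (50 to 809 of all), 0 to 1 past the stricter threshold (MRPL10 without shControl replicate 2), 70 to 74 members below 0 and medians from -0.34 to -0.23. Replicates 1 and 3 alone also put 1 member, MRPL10, past the stricter threshold. The median moved beyond the spread between the libraries, to -0.17, after the GC and length loess, with or without the block. With the replicate number as a block, 50 members fell and 0 rose (3156 of all 16020 tested genes called lower and 2218 higher). Block and loess together gave 35 that fell and 1, MRPS6, that rose (adjusted p = 0.0483, against 0.784 in the fit of the report). In that fit 3009 of all 15210 tested genes were called lower and 2577 higher. Deviations from the group means of same-numbered libraries had correlations of 0.0914, 0.430 and 0.328 over 16020 genes and of 0.283, 0.866 and 0.750 over the 77 members. These correlations were highest in replicate 2 and lowest in replicate 1. Deviations within a group sum to 0, so a deviation shared by replicate 2 can also raise the other correlations. Libraries with different numbers were not compared, so these values cannot show whether the numbers mark pairs. The fit of the report has no block because the study's methods state none, and whether the numbers mark pairs is not known. Among NGEF and the 26 members for which each alternative was followed, NGEF, MRPL22, MRPL41, MRPS12, MRPS18A and MRPS18B passed with the block (adjusted p from 0.00104 to 0.0459). Median centring, robust eBayes, a pseudocount of 0.01 or 1 FPKM and a filter at 1 FPKM or none gave 9 to 11 members that fell. Of the 77 members, 16 changed sign in at least 1 alternative, with log2 fold changes from -0.30 to 0.06 in the fit of the report, and 10 of them did so after the loess. Among these 26 members, 6 changed sign. After the loess, with or without the block, MRPL15 moved to 0.11, MRPL32 to 0.087, MRPS22 to 0.081 and MRPS33 to 0.055. After quantile normalization they moved to 0.083, 0.053, 0.059 and 0.073. With the arm median subtracted MRPL15 moved to 0.23, MRPL32 to 0.22, MRPS22 to 0.0034 and MRPL53 to -0.0099. With the neighbours' median subtracted MRPL15 moved to 0.44, MRPL32 to 0.038, MRPL53 to -0.0099 and MRPS6 to -0.00098. After median centring MRPL15 moved to 0.0041 and MRPS33 to 0.0019. Without 1 library at a time the values ranged from -0.064 to 0.028 for MRPL15, -0.10 to 0.030 for MRPL32, -0.21 to 0.27 for MRPL53, -0.14 to 0.047 for MRPS22 and -0.038 to 0.031 for MRPS33. The cause of these changes was not tested. Of 567 alternative values for these 26 members and NGEF, 423 kept direction and side of the threshold, 87 kept the direction but no longer passed, 21 newly passed and 36 changed sign.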
